A study of Mus musculus with 2 samples.

Results

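The genes described here are 10 adhesion and junction molecules of blood vessels, taken by symbol from the 24346 genes listed in both libraries (Sele, Selp, Icam1, Vcam1, Icam2, Pecam1, Cdh5, Esam, Jam2 and F11r). All 10 were found. Dorsal skin of C57BL/6J pups was wounded at the age of 1 day and harvested 24 h later from WT and PU.1 KO littermates, with 1 mRNA library per genotype. The PU.1 KO line carries its deletion of the transcription factor PU.1 (gene Spi1) throughout the animal, not in blood cells alone, and the number and sex of the pups behind each library are not stated in the labels or methods. The methods describe a full-thickness incision, while the design text of the series speaks of excision.

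Leukocytes leave the blood in steps. Selectins on the activated vessel wall let passing leukocytes tether and roll, members of the immunoglobulin superfamily such as ICAM-1 and VCAM-1 bind leukocyte integrins and hold the cells, and molecules of the endothelial junction guide them between the endothelial cells. In skin, E-selectin, P-selectin, ICAM-1 and VCAM-1 are known to be induced by inflammatory cytokines such as TNF and interleukin-1, whereas VE-cadherin (Cdh5), PECAM-1, ICAM-2 and ESAM are carried by resting endothelium.

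The libraries held an estimated 13900000 reads (WT) and 16000000 reads (PU.1 KO), read from the steps in which low FPKM values move. FPKM counts fragments relative to transcript length and to the fragments of the library. Spi1 itself had 35.4 FPKM (WT) against 1.45 FPKM (PU.1 KO), a WT over PU.1 KO ratio of 24.3. All 10 macrophage markers and 8 of 9 neutrophil markers measured were at least 2-fold lower in the PU.1 KO library. Xist was listed at 0 in WT and 9.48 FPKM in PU.1 KO, while 4 genes of the Y chromosome (Uty, Kdm5d, Eif2s3y and Ddx3y) lay between 2.16 and 38.5 FPKM in WT and were listed at 0 in PU.1 KO, so genotype and the sex of the pups cannot be told apart. With 1 library per genotype there is no spread between animals and no p-value. Each ratio carries a 95% exact binomial interval from the estimated reads, which covers counting error only.

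The mRNAs of vessel molecules that capture leukocytes were present in the PU.1 KO wound, and those of Sele, Selp and Icam1 were higher there than in the WT wound. Protein was not measured. No member reached the 2-fold threshold in either direction, and 3 of 10 reached 1.5-fold, all of them higher in PU.1 KO. Among the 13237 genes of at least 1 FPKM in 1 or both libraries, 1.71% were at least 2-fold higher and 4.45% at least 2-fold lower, 5.45% were at least 1.5-fold higher and 8.17% at least 1.5-fold lower. Over all genes listed, 2.32% were at least 2-fold higher and 4.34% at least 2-fold lower. The members had a median log2 ratio of 0.30 (PU.1 KO over WT, n = 10 genes), beside −0.0042 for the 13237 genes. In PU.1 KO 9 of 10 members were higher, Vcam1 being the exception, beside 49.3% of the 13237 genes. Of these 9, Esam and Jam2 had counting intervals that hold 1. Markers of other skin cells also lay higher, with 9 of 9 for keratinocytes, 8 of 8 for fibroblasts, 8 of 8 for skeletal muscle and 7 of 8 for pericytes.

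Sele encodes E-selectin, an endothelial lectin that captures neutrophils and other leukocytes. It had 8.26 FPKM (WT) against 15.6 FPKM (PU.1 KO), from about 310 and 671 reads. The ratio was 1.88 (interval 1.64 to 2.16), so that the interval holds the 2-fold threshold. Selp encodes P-selectin, which endothelial cells and platelets store in granules and move to the surface on activation. Its level was 14.1 FPKM (WT) against 21.6 FPKM (PU.1 KO), a ratio of 1.53 (1.39 to 1.69). This interval holds 1.5. With a pseudocount of 1 FPKM or with the endothelial identity genes as the scale Selp lay below 1.5-fold (log2 ratios of 0.58 and 0.49). That leaves Sele and Icam1 at least 1.5-fold higher, while on the endothelial scale Vcam1 was at least 1.5-fold lower (−0.61). Both selectin mRNAs were thus higher in the PU.1 KO library, and the level of Sele over that of Selp was 0.585 in WT and 0.720 in PU.1 KO.

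Icam1 encodes the ligand of the β2 integrins LFA-1 and Mac-1, carried by endothelium and also by keratinocytes, fibroblasts and leukocytes. It was the most abundant of the inducible molecules, with 30.3 FPKM (WT) against 56.8 FPKM (PU.1 KO). Its ratio of 1.87 (1.73 to 2.02) differed from that of Sele by 0.01 on the log2 scale, with overlapping intervals, and its interval, which also holds 2-fold, lay above that of Selp. Vcam1 encodes the ligand of the α4β1 integrin. Its level was low, at 4.70 FPKM (WT) against 3.36 FPKM (PU.1 KO), about 213 and 175 reads. This is a ratio of 0.716 (0.582 to 0.878), an interval below 1. Within 1 library, the level of Icam1 was 6.46 times that of Vcam1 in WT and 16.9 times in PU.1 KO.

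**Figure D1:**
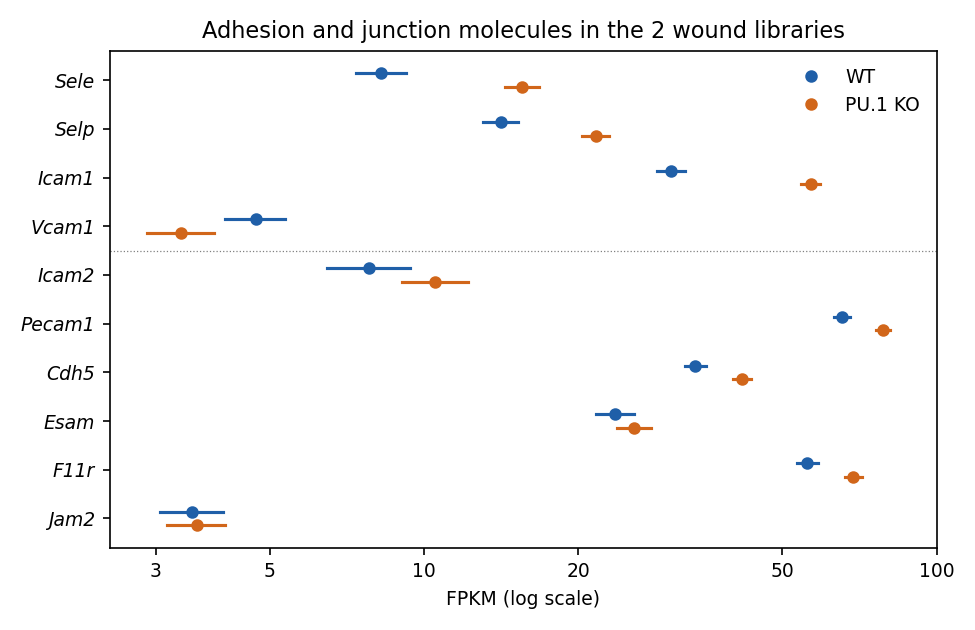
FPKM (horizontal axis, log scale) of each gene in the WT library (blue) and the PU.1 KO library (orange), with exact Poisson intervals at 95% from estimated reads as bars; the dotted line separates the cytokine-inducible molecules above from the molecules of resting vessels and junctions below. Sele, Selp and Icam1 lie to the right in PU.1 KO (15.6, 21.6 and 56.8 FPKM), Vcam1 to the left (3.36 FPKM), and the bars of the libraries overlap for Icam2, Esam and Jam2.

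The bases before the start of the 3 genes that were higher by at least 1.5-fold are shown, a choice made from these values. With 1 library per genotype, whether the 3 genes move together cannot be told. The bases were taken from RefSeq for GRCm38.p6, the assembly of mm10. Each run of 250 bases ends at the base before the start, on the plus strand, at chr1:164047984-164048233 for Sele, chr1:164115014-164115263 for Selp and chr9:21015690-21015939 for Icam1. Capitals mark letters of a PU box (GAGGAA), an AP-1 site (TGANTCA) or a TATA box (TATAAA), searched on both strands. The NF-kB consensus was searched in the same way as GGGRNNYYCC, where R is A or G, Y is C or T and N is any base. No marked stretch overlaps another. For Sele the start is that of the GENCODE transcript and lies within the longer span that RefSeq gives the gene.
Sele: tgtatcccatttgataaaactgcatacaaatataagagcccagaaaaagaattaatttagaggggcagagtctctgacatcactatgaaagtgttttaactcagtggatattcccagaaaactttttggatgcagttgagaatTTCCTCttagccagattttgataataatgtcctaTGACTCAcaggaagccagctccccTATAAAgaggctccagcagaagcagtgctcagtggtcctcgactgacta
Selp: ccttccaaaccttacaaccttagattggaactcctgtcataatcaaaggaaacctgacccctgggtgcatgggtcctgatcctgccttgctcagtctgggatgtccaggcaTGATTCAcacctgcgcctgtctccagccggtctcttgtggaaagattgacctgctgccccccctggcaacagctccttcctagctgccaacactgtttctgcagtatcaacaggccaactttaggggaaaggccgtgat
Icam1: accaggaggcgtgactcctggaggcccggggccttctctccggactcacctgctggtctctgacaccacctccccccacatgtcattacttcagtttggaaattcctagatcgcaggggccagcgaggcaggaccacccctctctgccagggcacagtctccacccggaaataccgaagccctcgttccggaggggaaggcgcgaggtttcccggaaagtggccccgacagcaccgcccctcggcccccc

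RefSeq sequence was at hand for 4 members, F11r being the other. The Sele window held a TATA box from 49 to 44 bases before the start, an AP-1 site from 73 to 67 bases before it and a PU box on the minus strand from 107 to 102 bases before it. The Selp window held an AP-1 site from 139 to 133 bases before the start, and the Icam1 window held none of the motifs in these letters. F11r, which was below 1.5-fold, held a PU box and an AP-1 site. The NF-kB consensus was in none of the 4 windows in the letters GGGRNNYYCC. Sites that differ from these letters were not searched, so the windows cannot be said to lack NF-kB sites. Of 32851 such windows, 23.3% held the PU box, 12.4% the TATA box, 7.25% the NF-kB consensus and 6.75% the AP-1 site. A match describes the letters and not binding, and the lack of one says only that these letters are not in the window.

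The 6 molecules of resting vessels and junctions had a median log2 ratio of 0.28 against 0.76 for the 4 inducible molecules. The difference was 0.48. The 4 inducible molecules were split, with log2 ratios of 0.91 (Sele), 0.90 (Icam1), 0.62 (Selp) and −0.48 (Vcam1). All 6 others were higher in PU.1 KO, but the intervals of Esam and Jam2 hold 1 and that of Icam2 overlaps that of Selp. Pecam1, an adhesion molecule of endothelium, platelets and leukocytes, was the most abundant of all 10 in both libraries, with 65.3 FPKM (WT) against 78.7 FPKM (PU.1 KO), a ratio of 1.20 (1.15 to 1.26). Cdh5, the cadherin that holds endothelial cells together, was at 33.8 FPKM (WT) against 41.8 FPKM (PU.1 KO), a ratio of 1.23 (1.16 to 1.31). The level of Pecam1 over that of Cdh5 was 1.93 in WT and 1.88 in PU.1 KO. Icam2, a constitutive β2 integrin ligand of endothelium, was at 7.83 and 10.5 FPKM, a ratio of 1.34 (1.06 to 1.72) that rests on about 116 and 180 reads.

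Esam, a junction protein of endothelium and platelets, was at 23.6 FPKM (WT) against 25.7 FPKM (PU.1 KO). Its interval of 0.968 to 1.22 holds 1. Jam2, which encodes the junctional molecule JAM-B, was at 3.53 FPKM (WT) against 3.60 FPKM (PU.1 KO), also with an interval that holds 1 (0.843 to 1.24). F11r encodes JAM-A, which lies in the junctions of epithelium as well as endothelium. It was at 56.0 FPKM (WT) against 68.8 FPKM (PU.1 KO), a ratio of 1.23 (1.16 to 1.31). The keratinocyte markers, which come from the epithelium of the same tissue, summed to 10522 FPKM (WT) against 12149 FPKM (PU.1 KO), a ratio of 1.15, and 9 of 9 were higher, the most abundant being Krt14 (4659 and 5195 FPKM) and Krt10 (2291 and 2602 FPKM). Their part in the value of F11r was not tested.

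Ordered by level in FPKM, Pecam1 and F11r stood at the top and Vcam1 and Jam2 at the bottom in both libraries. Pecam1 was above 89.4% of the 13237 genes in WT and 91.5% in PU.1 KO, Icam1 above 77.3% and 88.2%, Sele above 42.3% and 60.8%, and Vcam1 above 27.3% and 21.8%. In WT, Cdh5 stood above Icam1 with overlapping intervals, and Sele above Icam2 with overlapping intervals. In PU.1 KO, Icam1 stood above Cdh5 and Sele above Icam2 by 1.48-fold, both without overlap of the intervals, while Jam2 and Vcam1 overlapped. Ordered by ratio, Sele and Icam1 led, Selp followed below the interval of Icam1, and the intervals of neighbours from Selp down to Vcam1 overlapped in each step.

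**Figure D2:**
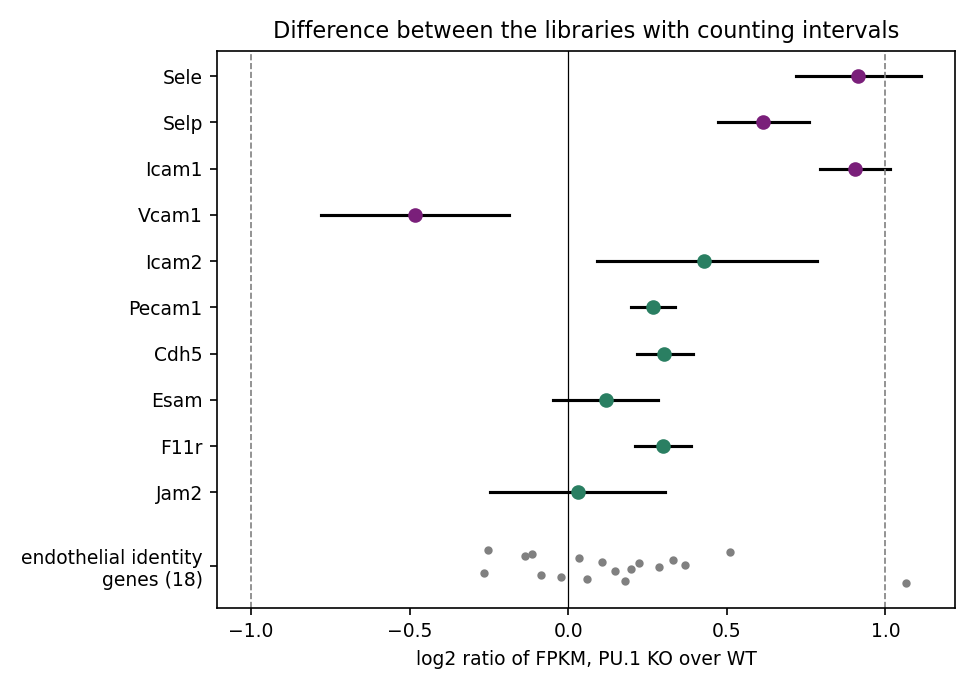
Log2 ratio of FPKM, PU.1 KO over WT (horizontal axis), of each member with its counting interval at 95% (bars), inducible molecules in purple and molecules of resting vessels in green; grey points are the 18 endothelial identity genes without bars, and dashed lines mark 2-fold. Sele (0.91) and Icam1 (0.90) lie near the line of 2-fold, and Vcam1 is at −0.48. The molecules of resting vessels and junctions lie between 0.03 and 0.43.

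In whole tissue, fewer or more cells of a type and less or more RNA per cell cannot be told apart. The endothelial identity of the tissue was therefore read from 18 other genes of endothelium, all of them detected in both libraries. None was at least 2-fold lower and 1 was at least 2-fold higher, with a median log2 ratio of 0.13 and 12 of 18 higher in PU.1 KO. The most abundant were Plvap, a protein of endothelial diaphragms, at 54.0 FPKM in WT and with a ratio of 1.15, and Ecscr, an endothelial surface protein, at 41.3 and 38.1 FPKM. Vwf, the von Willebrand factor stored with P-selectin in endothelial granules, was the gene past the threshold, with 2.82 FPKM (WT) against 5.90 FPKM (PU.1 KO), a ratio of 2.09 (1.84 to 2.38). The level of Selp was 5.01 times that of Vwf in WT and 3.67 times in PU.1 KO.

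Set against the geometric mean of these 18 genes within each library (11.1 FPKM (WT) against 12.2 FPKM (PU.1 KO)), Sele was at 0.747 times the mean in WT and 1.27 times in PU.1 KO. For Icam1 the level went from 2.74 to 4.64 times the mean, and for Selp from 1.28 to 1.77 times. The ratio between libraries on this scale was 1.70 for Sele, 1.69 for Icam1 and 1.38 for Selp, which then lay below 1.5-fold. No intervals were computed on this scale. Icam1 is also carried by keratinocytes and fibroblasts, and their part in its value here was not tested. Vcam1 went from 0.425 to 0.275 times the mean, a ratio of 0.647, which lay past 1.5-fold lower. The 6 other members stayed within 0.923 and 1.22 on this scale, with Esam (0.982) and Jam2 (0.923) just below 1. Against Cdh5 and Pecam1 alone the ratios were 1.55 for Sele, 1.53 for Icam1, 1.26 for Selp and 0.587 for Vcam1. Against the 14 identity genes of at least 5 FPKM they were 1.73, 1.71, 1.40 and 0.656 in the same order.

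Markers of other cells that could carry these molecules differed between the libraries as well. Macrophage markers summed to 835 FPKM (WT) against 5.74 FPKM (PU.1 KO), with 6 of 10 listed at 0 in PU.1 KO, among them Tyrobp, C1qb, C1qc and Fcgr3. Neutrophil markers summed to 12576 FPKM (WT) against 3669 FPKM (PU.1 KO), with Ngp, Retnlg, Ltf and Mmp8 listed at 0 in PU.1 KO and with S100a8 and S100a9, which keratinocytes also make, making up most of the rest. Leukocytes can express Icam1, Pecam1 and Vcam1, and the levels of Icam1 and Pecam1 were higher in the library in which these marker sums were lower, while Vcam1 was lower there. The part of leukocytes in these values was not tested. For platelets, which carry Selp, Pecam1, Esam and F11r, only 3 of 10 markers reached 1 FPKM. Among them, Gp1bb was at 5.25 and 4.99 FPKM and Itga2b at 3.19 and 3.83 FPKM, while Ppbp fell from 72.0 to 0.217 FPKM. Gp6 and Treml1 were listed at 0 in both libraries.

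Skeletal muscle markers were higher in PU.1 KO in 8 of 8 genes, and their sum was 8380 FPKM (WT) against 14234 FPKM (PU.1 KO), a ratio of 1.70. Myh3 and Myh8 passed 2-fold, and Acta1 and Mylpf were the most abundant. Muscle is rich in vessels, and the part of this difference in the values of Sele, Selp and Icam1 was not tested. Pericyte markers had a median log2 ratio of 0.22 over 8 genes, with Higd1b at least 2-fold higher (1.25 and 4.10 FPKM) and Des, which muscle also expresses, at 396 and 699 FPKM beside Pdgfrb at 19.3 and 20.2 FPKM, and fibroblast markers one of 0.26 over 8 genes, with Col3a1 and Dcn the most abundant. Lymphatic endothelium, which shares Pecam1 and Cdh5 with blood vessels, was represented by 6 genes. Of these, Ccl21a (9.61 and 25.8 FPKM) and Reln (1.02 and 2.25 FPKM) were at least 2-fold higher, and Lyve1, which macrophages also express, was at 38.3 and 21.5 FPKM. Pdpn, the most abundant of the 6 and also made by other skin cells, was at 81.7 FPKM in both libraries.

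Many leukocyte partners of these molecules were low or listed at 0 in PU.1 KO. Of 14 counter-receptors, 7 were at least 2-fold lower in PU.1 KO and 1 was at least 2-fold higher, with a median log2 ratio of −1.31. Selplg, the mucin that binds E-selectin and P-selectin, fell from 6.71 FPKM to 0.0262 FPKM, the latter about 1 read, a WT over PU.1 KO ratio with a counting interval of 31.1 to 6986. Itgb2, the β2 chain that binds ICAM-1 and ICAM-2, fell from 20.4 to 0.165 FPKM (about 783 and 7 reads). Its partners Itgam and Itgal fell from 24.8 to 0.378 FPKM and from 1.46 to 0.0750 FPKM. Cd177, a neutrophil surface protein that binds PECAM-1, fell from 23.6 to 0.0250 FPKM, again about 1 read in PU.1 KO. Itgb7 fell from 2.02 to 0.433 FPKM, and Spn, at 1.07 FPKM in WT, was listed at 0 in PU.1 KO.

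Counter-receptors that other cells of skin also carry were among the 6 that passed the threshold in neither direction. Itgb1, the β1 chain that pairs with α4 to bind VCAM-1, was at 178 FPKM in both libraries. Cd44, a hyaluronan receptor that can carry E-selectin ligands, was at 98.3 FPKM (WT) against 79.6 FPKM (PU.1 KO). Itga4, the α4 chain, was the gene that was higher, with 1.13 FPKM (WT) against 2.39 FPKM (PU.1 KO), a ratio with a counting interval of 1.75 to 2.58. The level of Icam1 over that of Itgb2 was 1.49 in WT and 343 in PU.1 KO.

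**Figure D3:**
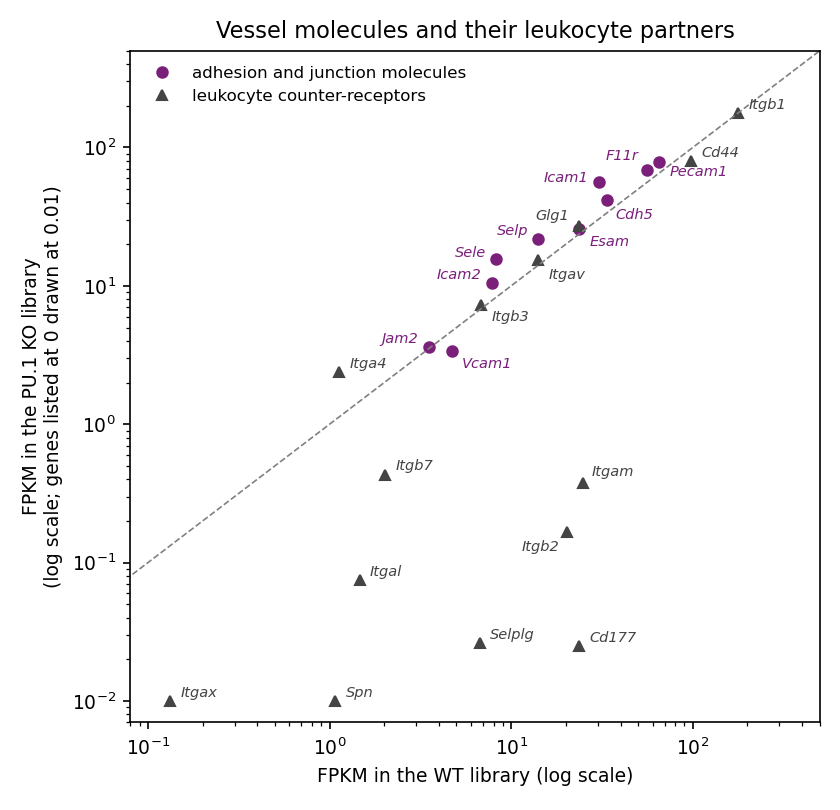
FPKM in the WT library (horizontal axis) against FPKM in the PU.1 KO library (vertical axis), both on log scales, for the 10 adhesion and junction molecules (circles) and 14 leukocyte counter-receptors (triangles); genes listed at 0 in PU.1 KO are drawn at 0.01 and the dashed line marks equal levels. The circles lie near or above the line, with Vcam1 below it, while Selplg, Itgb2, Itgam, Itgal, Cd177, Itgb7, Spn, Itgax and Cd44 lie below it.

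The genes of both endothelial selectins lie on chromosome 1 of GRCm38, with Sele from 164039614 to 164058487 and Selp from 164115264 to 164150026. On chromosome 9, Icam1 (21015940 to 21028814) is followed by Icam4 (21029432 to 21030596) and Icam5 (21032038 to 21039036), which were at or below 0.271 FPKM in both libraries. Vcam1 lies on chromosome 3 from 116110020 to 116129688, Cdh5 on chromosome 8 from 104101613 to 104144504, Esam on chromosome 9 from 37528089 to 37538319 and Jam2 on chromosome 16 from 84774123 to 84826380. Icam2 (106377656 to 106388139) and Pecam1 (106654213 to 106715281) are both on chromosome 11, and F11r is on chromosome 1 from 171437561 to 171464593. GENCODE places a gene on the opposite strand over Selp, Icam1, Vcam1 and Cdh5. Over Selp these include Gm16548, listed at 2.38 FPKM (WT) against 4.33 FPKM (PU.1 KO). The libraries were stranded, but the counting setting is not given in the sources used here, so reads of Selp and Gm16548 may not be separate.

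Among 19 other molecules of leukocyte passage and cell junctions, none was at least 2-fold lower and 2 were at least 2-fold higher, with a median log2 ratio of 0.13. Madcam1, an addressin that binds the α4β7 integrin, was at 1.67 FPKM (WT) against 4.67 FPKM (PU.1 KO), a ratio of 2.80 (1.83 to 4.49) from about 28 and 91 reads. The other was Icam4, listed at 0 in WT and 0.271 FPKM in PU.1 KO. Its call rests on 0 and about 4 reads and on raising the WT value to 0.1 FPKM, and its counting interval, from 0.575 upward, holds 1. The most abundant genes of this list, Ctnnb1 (248 and 261 FPKM) and Gja1 (196 and 213 FPKM), encode β-catenin and connexin 43. Of 8 enzymes that build selectin ligands, only Gcnt1, which starts branches on O-glycans, passed 2-fold, falling from 3.24 to 1.32 FPKM. B4galt1 (55.9 and 61.6 FPKM) and St3gal4 (17.7 and 17.0 FPKM) were the most abundant of them.

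The cytokines that induce E-selectin, ICAM-1 and VCAM-1 were partly lower. Of 17 cytokines, receptors and NF-kB pathway genes, 3 were at least 2-fold lower and none was at least 2-fold higher. Il1b, which encodes interleukin-1β, fell from 63.9 to 0.169 FPKM, the latter about 3 reads, a WT over PU.1 KO ratio with a counting interval of 133 to 1888. Tnf fell from 6.40 to 1.31 FPKM and Tnfrsf1b, a TNF receptor, from 11.2 to 3.29 FPKM. Il1a, the other interleukin-1 agonist, was at 16.3 and 11.1 FPKM, and Il6 at 70.3 and 50.4 FPKM. The receptors Tnfrsf1a (188 and 197 FPKM) and Il1r1 (57.0 and 77.8 FPKM) and the NF-kB target Nfkbia (198 and 195 FPKM) were measured at high levels in both libraries. Sele and Icam1 were thus higher in the library in which Il1b and Tnf were lower, and Vcam1 was lower there.

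Of 9 genes linked to activated endothelium of venules, 1 was at least 2-fold lower and none at least 2-fold higher, with 4 above and 5 below a log2 ratio of 0. Ackr1, the chemokine-binding receptor of venules, was at 9.45 FPKM (WT) against 15.0 FPKM (PU.1 KO), a ratio of 1.59 from about 123 and 225 reads. Cxcl2, a neutrophil attractant, fell from 180 to 48.4 FPKM, while Cxcl1, also a neutrophil attractant, was at 187 and 208 FPKM. Ptgs2, a prostaglandin synthase, was at 28.4 FPKM in PU.1 KO with a ratio of 1.42, Ccl2 at 444 and 269 FPKM and Lcn2 at 1125 and 779 FPKM. Other cells of the wound also make these chemokines, Lcn2 and Ptgs2.

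**Figure D4:**
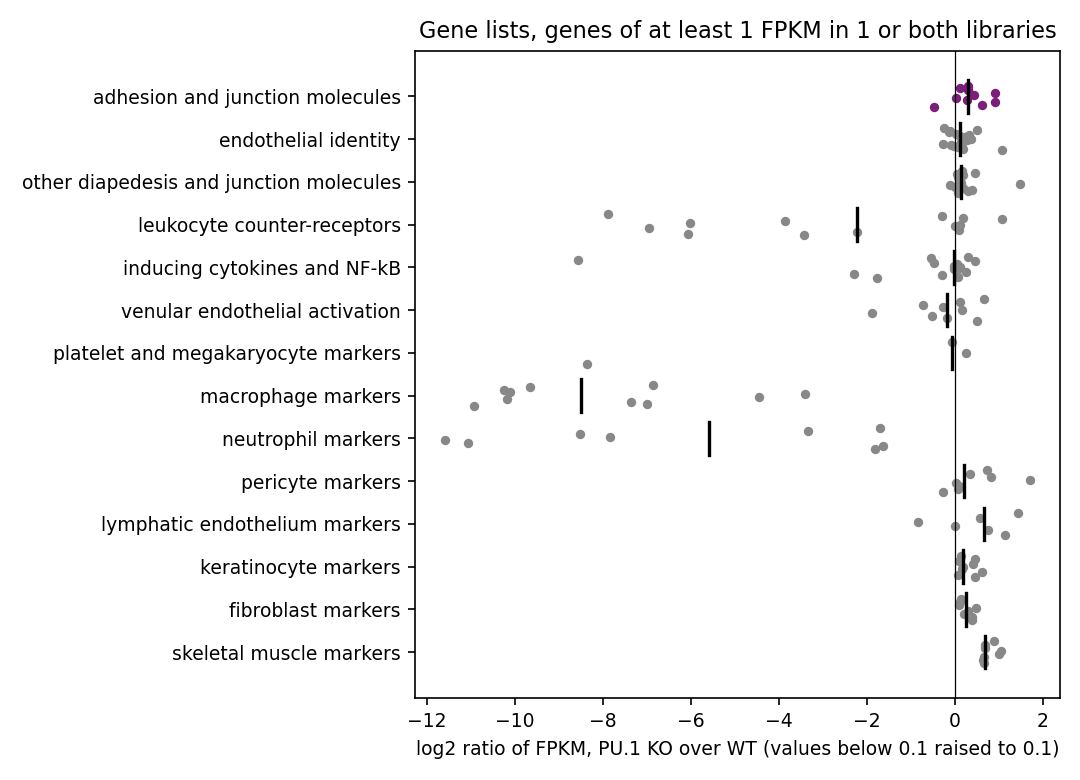
Log2 ratio of FPKM, PU.1 KO over WT, with values below 0.1 FPKM raised to 0.1 (horizontal axis), for each gene of at least 1 FPKM in 1 or both libraries in the gene lists named on the vertical axis; points are genes and black bars are medians. The adhesion and junction molecules (purple) have a median of 0.30, endothelial identity genes one of 0.13, skeletal muscle markers one of 0.68, leukocyte counter-receptors one of −2.22 and macrophage markers one of −8.51.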

How the data were processed

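Skin wounds of WT and PU.1 KO pups were sequenced as 1 library per genotype (stranded mRNA, single-end reads of 75 bases, mm10). The authors deposited FPKM values, made with Cuffnorm 2.2.1. The submitters' processing notes also name TopHat2 2.1.1, Bowtie2 2.2.8, SAMtools 0.1.18 and Cuffdiff 2.2.1, and the gene annotation is not given in the sources used here.

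Values below 0.1 FPKM were raised to 0.1 before ratios were taken, and a gene was called at a ratio of at least 2. The value of 1 read was found as the first mode of FPKM times transcript length less 215 nt, over genes with a single transcript of more than 600 nt. Of the low values of these genes, 77.8% (WT) and 77.6% (PU.1 KO) lay within 0.1 of a whole read. An equal number of reads gave a WT over PU.1 KO ratio of 1.15. Reads of a gene used its longest GENCODE M21 transcript linked to RefSeq, so that read numbers and intervals are estimates. Gene positions come from RefSeq (GRCm38, which is mm10).

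The functions were tested on simulated Poisson counts in which 100 genes were raised and 100 lowered 4-fold. All of these were called in the right direction, and 186 of their 200 intervals held the true ratio. The same transcript lengths were used to draw the counts and to recover them. Errors from the choice of transcript could therefore not show. Smaller changes, such as those of the members, were not simulated.

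The members and gene lists were chosen with earlier results of these data known. Of 165 list entries 163 were matched by symbol or older symbol. Named from each list were up to 4 genes called in each direction at 1 FPKM or more and the 2 of highest WT level. Itgal, Itgb7, Spn, Itga2b, Gp6, Treml1, Il1a, Il6, Il1r1, Ackr1, Cxcl1, Ptgs2, Icam4, Icam5, Gm16548 and the sex chromosome genes were named after their values were seen. Alternatives of low values, scaling, filter, fold and reference genes were tried. Calculations ran in Python 3.11.15 with scipy 1.17.1, numpy 2.4.6 and pandas 2.3.3, and plots in matplotlib 3.10.9.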

Additional observations from a re-analysis of the deposited data

How the results depend on the processing

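No paired analysis was possible because each genotype has 1 library, and no replicate could be left out. No member was at least 2-fold lower or higher under any setting of low values, scaling or filter, nor at 3-fold, and at 1.5-fold 3 were higher and none lower with values as reported. Selp was below 1.5-fold with a pseudocount of 1 FPKM (log2 ratio 0.58) and with the endothelial median at 0 (0.49). With the endothelial median at 0, Vcam1 was past 1.5-fold lower (−0.61). The median log2 ratio of the members, 0.30 as reported, was 0.29 with a pseudocount of 1 FPKM, 0.35 with each library at the same FPKM sum, 0.31 with the median of genes of at least 10 FPKM at 0, 0.17 with the median of the endothelial identity genes at 0, and 0.37 over members of at least 5 FPKM. The inducible molecules less the others, 0.48, gave 0.43 with a pseudocount of 1 FPKM and 0.61 over members of at least 5 FPKM, which leaves out Vcam1 and Jam2 by construction. Of 78 values of single genes under an alternative, 72 were rated as the same and 6 as moved. These are not separate checks. Raising values below 1 FPKM to 1 could change no member, because all were above 1 FPKM in both libraries. Each scaling and each reference set shifted all members by the same amount. A log2 ratio was rated by whether it stayed within its counting interval. A change relative to endothelial genes was rated by whether it shifted no more than that interval reaches to either side on average. The 6 that moved were of Icam1, Pecam1, Cdh5 and F11r, all to lower values. Over the settings of low values and scaling, Sele ranged from 0.79 to 0.96, Icam1 from 0.78 to 0.95, Selp from 0.49 to 0.66 and Vcam1 from −0.61 to −0.39 on the log2 scale, and Esam (−0.01 to 0.17) and Jam2 (−0.10 to 0.08) changed sign under scaling to the endothelial genes. Depth limits Icam2, Vcam1 and Jam2 most, and counting intervals leave out all variation between animals.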
